A study of Homo sapiens with 2 samples.

Results

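The 7 genes that encode the FOS and JUN subunits of the transcription factor AP-1 were examined in HCT116 cells deprived of glucose. They were chosen by their gene symbols (FOS, FOSB, FOSL1, FOSL2, JUN, JUNB and JUND) from a table of 17987 human genes, of which 17054 had a value, and all 7 had one. The choice was made with earlier results of these data known, so counts of these genes are given as description only. AP-1 is a dimer held together by leucine zippers. A JUN protein can pair with another JUN protein or with a FOS protein, whereas FOS proteins need a JUN partner to bind DNA. Several of these genes are immediate early genes, whose RNA appears within minutes of growth factor or stress signals and is rapidly degraded. AP-1 is best known in epithelial tumors for driving genes of proliferation, invasion and inflammation.

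HCT116 is a human colorectal carcinoma cell line, classed as glucose-sensitive in the study. The study reports marked death of these cells without glucose. How many cells were dying or lost when the deprived library was made is not stated, and their part in the values was not tested. Its genotype is labelled wild type, whereas the table names the cells NC, the control cells of the study. RNA-Seq was performed on 1 library from cells in normal medium and 1 library from cells in glucose-free medium (0 mM glucose), both for 24 h. The study gives serum-containing DMEM as the medium and a wash before the change to glucose-free medium, but does not state whether the control cells were washed and refed as well. Since each condition was sequenced once, no difference could be tested or set against replicates, and each value below describes these libraries alone. The authors deposited a log2 fold change for each gene, read here as glucose deprivation over normal medium, and a false discovery rate (FDR) from a Poisson test that compares the reads of these libraries, not the conditions. The table holds neither levels nor read totals, so no error or interval can be given. In a bulk library, RNA from fewer cells cannot be told apart from less RNA per cell.

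Of the 7 AP-1 subunit genes, 6 were higher under glucose deprivation and none was lower, counting as higher a fold above 1.2 and as lower a log2 fold change below -0.75. JUN had the largest increase, a level 7.48-fold higher, followed by JUND at 3.02-fold, FOSL1 at 2.24-fold, JUNB at 2.17-fold, FOSB at 1.86-fold and FOSL2 at 1.51-fold. FOS stood apart from the other members with a level 1.15-fold lower, which reached neither size. In the whole table, 29.0% of the genes were higher and 22.3% were lower by the same sizes. The same 6 members had an authors' FDR of at most 0.001, a combination met by 15.9% of all genes for an increase and by 13.1% for a decrease. At a log2 fold change above 0.75 there were 5 members against 13.5% of all genes, and above 1 there were 4 members against 9.22%. The median log2 fold change was 1.12 over the 7 members and -0.12 over all genes, so that a gene listed at 0 lies slightly above the middle of the table.

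**Figure D1:**
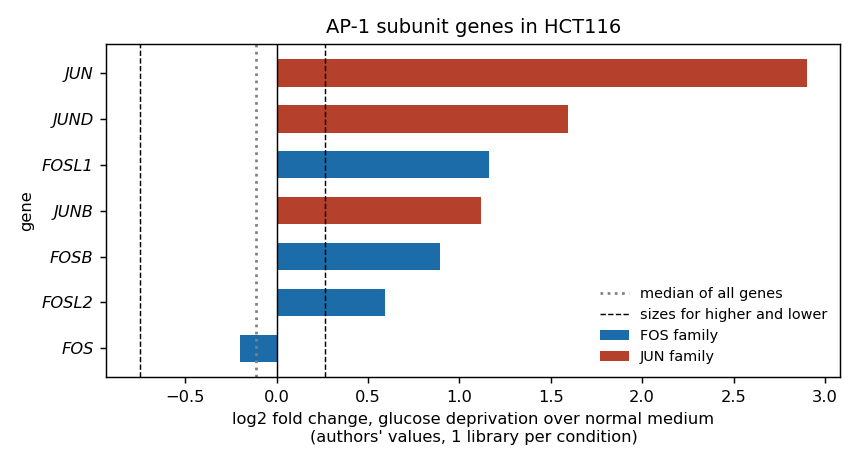
Deposited log2 fold change (horizontal axis, glucose deprivation over normal medium) of the 7 AP-1 subunit genes, 1 bar per gene and no error bar because there was 1 library per condition. Bars of JUN (2.90) to FOSL2 (0.59) pass the dashed line for a fold of 1.2, the bar of FOS (-0.20) lies close to the dotted median of all genes (-0.12), and the dashed line on the left marks -0.75.

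The JUN family was higher in all 3 of its members, with a median log2 fold change of 1.59. JUN (gene ID 3725), the founding member and the subunit activated by phosphorylation through JNK, had a log2 fold change of 2.90 (FDR 4.00e-195), and 248 genes, 1.45% of those with a value, had a larger one. Its fold could be written as a ratio of whole numbers, 2101 under glucose deprivation to 281 in normal medium. Such a ratio is in lowest terms and its unit is unknown, so it is not a read count or a level. It only shows that the values behind the fold of JUN were fine enough for a step in the smaller one to move the fold by at most 0.356%. JUND (3727), which is expressed broadly and can restrain proliferation, came next with 1.59 and a listed FDR of 0. It was 1.31 below JUN on the log2 scale, with 4.87% of the genes above it. JUNB (3726), a weaker activator that can counteract JUN, had 1.12 (FDR 5.66e-88), corresponding to 2134 to 985, with 8.22% of the genes above it. JUND and JUNB were thus separated by 0.48 on the log2 scale.

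JUN is known to act on its own promoter through a variant AP-1 site that is bound by JUN with ATF2. The JUN promoter is therefore shown beside that of JUND, which holds the related element TGACGTCA. The stretches are the last 220 bases before the RefSeq start of each gene in the build GRCh38.p14, chr1:58784048-58784267 and chr19:18281623-18281842, both on the minus strand and printed 5′ to 3′ as transcribed. Capitals mark TGACATCA and TGACG in JUN, and TGACGTCA and TGACG in JUND, where CGTCA is TGACG read on the opposite strand.
JUN: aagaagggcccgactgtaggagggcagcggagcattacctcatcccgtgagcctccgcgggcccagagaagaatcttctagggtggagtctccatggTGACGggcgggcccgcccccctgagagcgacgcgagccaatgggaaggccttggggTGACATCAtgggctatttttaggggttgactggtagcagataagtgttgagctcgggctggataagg
JUND: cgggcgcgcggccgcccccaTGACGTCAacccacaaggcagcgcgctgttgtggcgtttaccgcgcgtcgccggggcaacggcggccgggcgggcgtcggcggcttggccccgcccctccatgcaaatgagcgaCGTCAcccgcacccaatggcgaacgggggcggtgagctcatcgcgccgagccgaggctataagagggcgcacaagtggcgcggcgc
In JUN, TGACATCA lies at bases -67 to -60, counted back from -1 at the base before the start. It was found in no other of the 6 members with a promoter entry and in 2.61% of the 35116 RefSeq promoters searched on both strands from 250 bases before the start to 50 after it. In JUND, TGACGTCA, the full cyclic AMP response element (CRE), lies at -200 to -193 and was found in 1.85% of all promoters. The JUN and JUND promoters held no TATAAA in the same window. Only these exact letters were searched, and the printed JUND stretch holds the near match TATAAG, so JUND cannot be called a promoter without a TATA box.

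The FOS family was higher in 3 of its 4 members, with a median log2 fold change of 0.74. FOSL1 (8061), which encodes FRA1, a FOS protein without the transactivation domain of FOS and often abundant in invasive carcinoma cells, led with 1.16 (FDR 1.04e-132). It was 0.048 above JUNB and 0.57 above FOSL2 on the log2 scale, and 7.82% of the genes had a larger value. FOSB (2354), an immediate early gene, had 0.90 with an FDR of 0.00059, which is less extreme than those of the other higher members. Its fold was 147 to 79 in whole numbers, where a step moves the fold by at most 1.27%, and 11.3% of the genes lay above it. FOSL2 (2355), which encodes FRA2, had 0.59 (FDR 7.16e-17), corresponding to 1299 to 863, and 16.9% of the genes lay above it. This increase passed a fold of 1.2 but not a log2 fold change of 0.75.

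FOS (2353), the prototype immediate early gene, had a log2 fold change of -0.20 with an FDR of 0.488, and 54.5% of the genes had a larger value. It corresponded to 67 under glucose deprivation and 77 in normal medium, with a step worth at most 1.49%, the largest such bound among the 5 members for which a ratio was found. Relative to the median of all genes its value was -0.085. JUN was 3.10 above FOS on the log2 scale, an 8.59-fold difference between the changes of these partners, and FOSB was 1.10 above FOS. These differences have no replicate error to be set against.

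**Figure D2:**
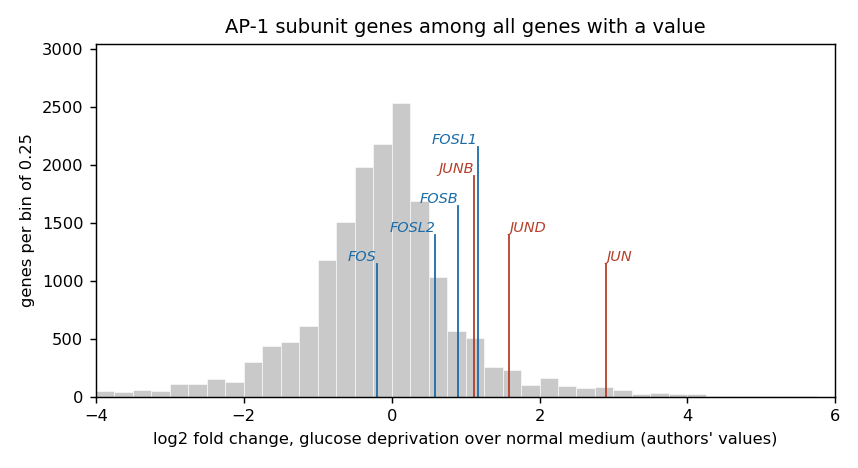
Number of genes per bin of 0.25 of the deposited log2 fold change (grey, 17054 genes, of which 122 lie outside the plotted range of -4 to 6), with a vertical line for each AP-1 subunit gene (blue FOS family, red JUN family). The height of a line only carries its name, and FOS lies within the bulk of the genes while JUN has 1.45% of the genes above it.

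The FOS and FOSB promoters are shown because these closely related genes share their promoter layout while their log2 fold changes lay 1.10 apart. Both stretches are the 220 bases before the RefSeq start in GRCh38.p14, chr14:75278608-75278827 and chr19:45467776-45467995, both on the plus strand. Capitals mark TGACG, the core of the CRE, followed by the TATA box TATAAA.
FOS: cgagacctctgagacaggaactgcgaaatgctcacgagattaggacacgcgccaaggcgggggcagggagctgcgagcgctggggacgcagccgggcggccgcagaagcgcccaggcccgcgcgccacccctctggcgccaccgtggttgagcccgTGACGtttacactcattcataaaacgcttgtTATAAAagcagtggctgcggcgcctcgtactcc
FOSB: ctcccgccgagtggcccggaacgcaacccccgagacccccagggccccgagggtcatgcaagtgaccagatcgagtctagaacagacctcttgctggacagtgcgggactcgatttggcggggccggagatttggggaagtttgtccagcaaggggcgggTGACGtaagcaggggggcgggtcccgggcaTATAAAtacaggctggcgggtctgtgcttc
In FOS the TGACG lies at bases -64 to -60 and the TATAAA at -33 to -28. In FOSB they lie at -60 to -56 and -30 to -25, so both genes carry the same pair at nearly the same distances. TATAAA was found in 3 of the 6 members with a promoter entry, the third being JUNB at -31 to -26, and in 11.5% of all promoters. The promoter of FOSL2 is shown because it alone of the 6 held the consensus AP-1 site TGACTCA, which was found in 4.95% of all promoters. The stretch runs from base -80 to base 11, where base 1 is the start, at chr2:28392778-28392868 on the plus strand of GRCh38.p14, with TGACG and TGACTCA in capitals.
FOSL2: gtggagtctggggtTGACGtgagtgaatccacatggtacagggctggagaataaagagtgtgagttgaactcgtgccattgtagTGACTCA
The TGACTCA lies at bases 5 to 11 and the TGACG at -66 to -62, and a further TGACG on the opposite strand lies outside the printed stretch at -201 to -197. The core TGACG, which was searched after the sequences had been seen, occurred in all 6 promoters, including JUNB at -137 to -133, and in 24.6% of all promoters. It is part of TGACGTCA on both strands, so the CRE of JUND is counted under both. The CArG box of the serum response factor SRF was in none of the 6 windows and in 1.29% of all promoters. The serum response element known in FOS lies farther upstream than this window reaches, so the search could not have met it. Both FOS, which was not higher, and the 5 others, which were, held a TGACG. These matches are letters only and show no binding.

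**Figure D3:**
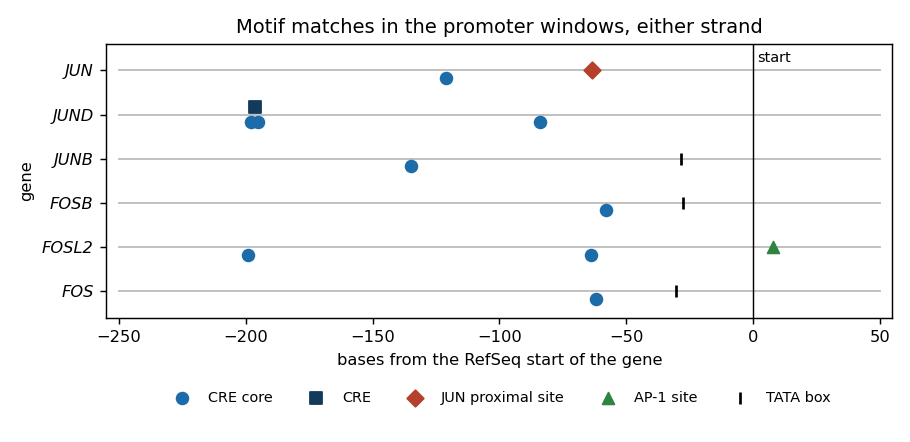
Positions of the motif matches (symbols, either strand) in the promoter windows of 6 AP-1 subunit genes, with distance from the RefSeq start in bases on the horizontal axis and the start as a vertical line. All 6 genes have a CRE core, whereas the full CRE (JUND), the JUN proximal site TGACATCA (JUN) and the AP-1 site (FOSL2) each occur in 1 gene.

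Some members share their locus with other genes. In the GENCODE 29 annotation FOSB overlaps ERCC1 and JUNB overlaps HOOK2, each on the opposite strand. ERCC1, a DNA repair endonuclease subunit, had a log2 fold change of 0.67 (FDR 3.07e-17) and HOOK2, a microtubule linker, had 0.85 (FDR 3.83e-36). Only whole gene spans were compared, not exons, and whether the counting used strand is not stated. Whether reads were shared within these pairs is therefore unknown, and the part of such reads in the values of FOSB and JUNB was not tested. FOSL2 overlaps FLJ31356 and AC104695.3, neither with a value. JUN, JUND, FOSL1 and FOS overlap no other annotated gene. JUN and JUNB consist of a single exon in their only coding transcript, whereas the 9 coding transcripts of FOS have 2 to 4 exons.

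The basic leucine zipper proteins that can pair with AP-1 subunits were examined next. Of 12 listed partners 10 had a value, of which 7 were higher, 2 were lower and 1 was neither. Their median log2 fold change was 0.61. By the same sizes 29.0% of all genes were higher and 22.3% were lower, so the count of lower partners is close to the background. ATF3, a stress-induced partner of JUN proteins, had the largest increase at 3.70 with a listed FDR of 0, which is 13-fold and above that of JUN. MAFF, a small MAF protein, had 2.19 (FDR 1.15e-95), and JDP2, which pairs with JUN proteins and represses AP-1 sites, had 1.97 (FDR 1.47e-105). ATF2, the partner of JUN at TGACATCA, had 0.59 (FDR 6.62e-20). BATF3, a JUN partner best known from immune cells, was lower at -1.69 (FDR 9.58e-07). BATF2 was neither at -0.74 (FDR 0.06).

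The RNAs of the kinases that act on AP-1 had smaller values. JNK phosphorylates the activation domain of JUN, and p38 acts on ATF2 and on factors at the JUN promoter. Of the 16 genes of the JNK and p38 cascade, 2 were higher, 2 were lower and 12 were neither, and the median log2 fold change was -0.34. MAP3K12, an upstream kinase of JNK, had 0.44 (FDR 2.46e-09), and MAPK8, which encodes JNK1, had 0.29 with an FDR of 0.194. The lower members were MAPK10 at -1.36 (FDR 0.00756) and MAP2K6 at -1.58 (FDR 0.773), whose folds were ratios of small whole numbers, 7 to 18 and 1 to 3. The ERK cascade induces FOS and stabilizes FOS proteins. Of its 17 listed genes 4 were higher, 1 was lower and 12 were neither, with a median of -0.18. In both cascades the shares of higher and lower genes were below the 29.0% and 22.3% of all genes, so the named genes describe themselves and not their cascade. The higher ones were RPS6KA5 (1.08, FDR 5.91e-26), which encodes MSK1, a kinase of CREB1 and histone H3, RPS6KA2 (0.62), BRAF (0.56) and ARAF (0.38). RPS6KA4, the MSK2 gene, was lower at -0.94 (FDR 1.43e-49), so these paralogs had values of opposite sign. Phosphorylation, by which these kinases are controlled, was not measured.

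Of the 11 transcription factors that act at the FOS and JUN promoters, 3 were higher, 1 was lower and 7 were neither, and their median log2 fold change was 0.15. By size, the count of higher factors is close to the 29.0% of all genes, so it is no result on the list. With the FDR as well, 3 were higher, beside 15.9% of all genes, and so small a count describes those genes only. MEF2D (0.92, FDR 2.08e-55) and MEF2A (0.86, FDR 1.99e-56), which bind the JUN promoter, and CREB1 (0.64, FDR 5.69e-09), which binds the CRE, were higher. MEF2C of the same family was lower at -1.97 (FDR 3.98e-72). SRF and ELK1, which act together at the serum response element of FOS, had 0.22 and 0.13 and reached neither size.

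Of 10 genes that control the turnover of FOS and JUN, 4 were higher, 3 were lower and 3 were neither, with a median log2 fold change of -0.091. With 29.0% of all genes higher and 22.3% lower by size, these counts are close to the background and say nothing particular of the list. With the FDR as well, 3 were higher and 3 were lower, beside 15.9% and 13.1% of all genes. Counts of so few genes describe those genes only. ZFP36, which binds AU-rich elements and promotes decay of RNAs such as that of FOS, had 1.92 (FDR 3.01e-182), whereas its paralog ZFP36L2 had -1.42 (FDR 5.63e-123) and ZFP36L1 had -0.22. The RNA-binding proteins HNRNPD (-1.25, listed FDR of 0) and KHSRP (-0.80, FDR 4.47e-252), which also bind AU-rich elements, were lower. ELAVL1, which stabilizes such RNAs, had -0.70 and reached neither size. Of the ubiquitin ligases that act on JUN proteins, ITCH had 0.76 (FDR 6.89e-55) and FBXW7 had 0.71 (FDR 9.37e-13). DET1, an adaptor that works with COP1, had 0.76 with an FDR of 0.00135, and COP1 itself had 0.039.

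Genes known as AP-1 targets were examined last. Of 32 listed genes 29 had a value, of which 22 were higher, 2 were lower and 5 were neither, and 19 of the higher ones passed the FDR as well. Of all genes, 29.0% were higher and 22.3% were lower by size. The share that was higher with the FDR as well was 15.9%. The median log2 fold change of the targets was 1.25, against -0.12 over all genes. The list was chosen with earlier results of these data known. Its counts and median may partly reflect that choice and are given as description only. Many of the targets also respond to other factors, such as NF-kB for CXCL8 and IL6 or NRF2 for HMOX1, so the list does not measure AP-1 activity. Among the leading genes were the chemokine CXCL8 (5.08, FDR 9.28e-68), the plasminogen activator PLAU (2.96) and the laminin subunit LAMB3 (2.91), both PLAU and LAMB3 with a listed FDR of 0. The laminin subunit LAMA3 (2.02) and the EGF receptor ligands HBEGF (2.81), AREG (2.19), TGFA (1.76) and EREG (0.28) were all higher by size with an FDR of at most 0.001. MMP1 at 3.17, INHBA at 2.32 and MMP13 at 1.00 were higher by size only, with an FDR of 0.187, 0.0539 and 0.7, and their folds of 9, 5 and 2 were to a whole number of 1. SPP1 was lower at -1.54 (FDR 1.31e-05), and MMP7 was lower by size at -2.89 (FDR 0.0659). The genes that were neither were CCND1 (-0.22), VIM (0.13), MMP14 (0.21), and MMP9 and IL6, both listed at 0. A value of 0 is a ratio of 1 to 1 at any level, so it does not show whether MMP9 and IL6 were measured well enough to be called unchanged.

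**Figure D4:**
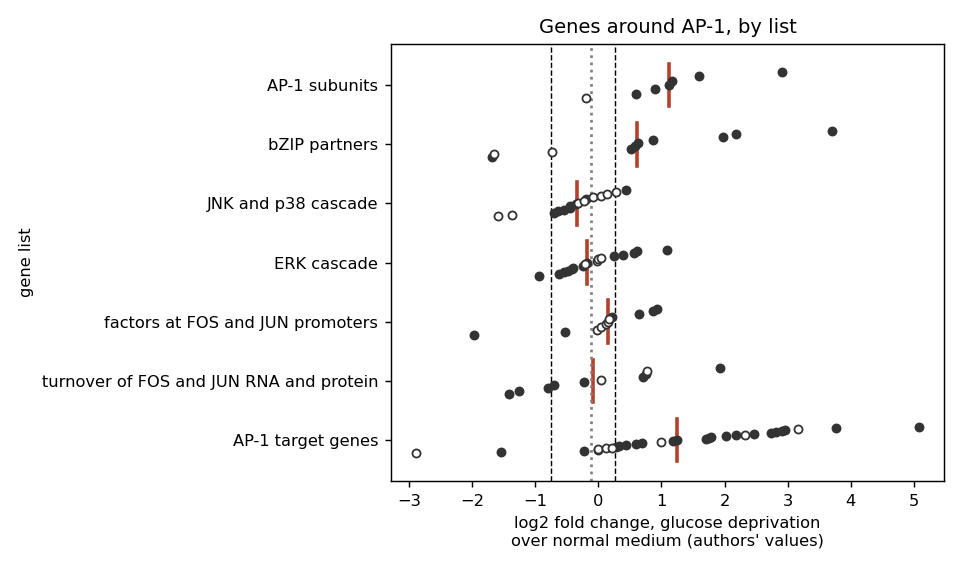
Deposited log2 fold change (horizontal axis) of the 100 genes with a value in the AP-1 subunit list and the 6 lists around it, 1 point per gene, filled where the authors' FDR is at most 0.001 and open above it. Red bars mark the list medians, the dotted line the median of all genes and the dashed lines the sizes for lower and higher. The subunits and the AP-1 targets have the highest medians (1.12 and 1.25), and the JNK and p38 cascade the lowest (-0.34). The lists were chosen with earlier results of these data known, so their order is a description only.

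The epithelial markers of this colon line were measured beside these genes. Of 8 listed, 7 had a value, with 1 higher (CDH1 at 1.45, listed FDR of 0), 2 lower (KRT20 at -3.26 and CDX2 at -1.15) and 4 neither (KRT8 at -0.23, KRT19 at -0.18, EPCAM at -0.0004 and KRT18 at 0.083). Of 5 fibroblast and 5 leukocyte markers, 3 and 2 had a value, none with an FDR of at most 0.001. By size PDGFRB (0.53) was higher, COL3A1 (-2.81) was lower and COL1A1 (-0.18) was neither, and both leukocyte markers were higher (PTPRC at 0.42 and LYZ at 0.49). The folds of PDGFRB, COL3A1 and PTPRC were ratios of small whole numbers, 13 to 9, 1 to 7 and 4 to 3. Among all genes, 29.0% were higher and 22.3% were lower by the same sizes, and counts of so few markers describe those markers only. Because levels are unknown, the marker values do not show how strongly any marker was expressed, and their part in the values of the AP-1 genes was not tested.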

How the data were processed

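RNA-Seq of HCT116 was analysed from the authors' deposited table, with 1 library per condition and no pooling. The paper's methods name MGI2000 sequencing, Bowtie, RSEM and the build mm10, whereas Bowtie2, BWA and hg19 stand in the submitters' processing notes. Versions are not given in the sources used here, and no coordinates of those builds were used. The authors made the deposited log2 fold change of each gene from both libraries, and the expression unit under it is not stated. The deposited p-value is from the authors' Poisson test. The deposited FDR served as a score, since it exceeds 1 for 501 genes (at most 1.027). Genes without a value (933) were left out.

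Genes were called by size (log2 fold change below -0.75 or fold above 1.2, as in the study's methods). Alternatives were the FDR of at most 0.001, sizes of 0.75 and 1 in both directions, centring on the median, genes with a low FDR alone, and exact symbols. The members and lists were chosen with earlier results of these data known. Named were all subunits, up to 4 members per list with the largest changes past the size and the FDR, and members that a count of 5 or fewer singles out. ATF2, SRF, ELK1, LAMA3 and the EGF receptor ligand genes were added after their values were seen. Some genes that this rule names are counted but not reported here by name.

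The log2 values have 9 decimals, so folds were written as the simplest ratio of whole numbers within 6e-10 on the log2 scale. Ratios with a product above 1e+07 were not used, which left 15310 genes (89.8%). These ratios, the core TGACG and the overlapping genes were added after the data had been seen. Scripts were tested on simulated data. RefSeq promoters (GRCh38.p14) matched 6 of the 7 members. Gene overlaps came from GENCODE 29. Python 3.11.15, numpy 2.4.6, pandas 2.3.3 and matplotlib 3.10.9 were used.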

Additional observations from a re-analysis of the deposited data

How the results depend on the processing

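With 1 library per condition no replicate could be left out, and levels and depth are unknown, so the planned pseudocounts and filter on low values were not run. No paired analysis was possible because neither condition has a second library. The count of 6 higher subunits was also 6 with the FDR, centred on the median of all genes or among genes with a low FDR alone. It was 5 at a size of 0.75 and 4 at 1, while 0 were lower in each of these settings. Keeping only genes with a low FDR counts the same members as the size with the FDR. Centring raised every value, so it could not remove a higher member. Centring moved each subunit by the same amount and gave log2 fold changes of 3.02 for JUN, 1.71 for JUND, 1.28 for FOSL1, 1.23 for JUNB, 1.01 for FOSB, 0.71 for FOSL2 and -0.085 for FOS. Of the settings applied to the 6 lists, 46 left the count within 1.5 times and 14 did not. The 46 include the setting of exact symbols for every list. That setting could not change a count, because no listed gene had been matched by an older symbol. Of the 10 bZIP partners with a value, 4 were higher at a size of 0.75 and 3 at 1, beside 13.5% and 9.22% of all genes. With the FDR, 1 lower partner was kept. In the JNK and p38 cascade 1 gene was higher and 0 were lower with the FDR, and 0 were higher at 0.75 or 1. In the ERK cascade 1 gene was higher at 0.75 and at 1, and 0 were lower at 1. Higher promoter factors numbered 0 at a size of 1 and 6 after centring, because genes just under a fold of 1.2 then pass it. Higher turnover genes numbered 1 at a size of 1, and 1 lower AP-1 target kept the FDR. For these lists too, the shares of all genes were 15.9% higher and 13.1% lower with the FDR. Higher at 0.75 and at 1 were 13.5% and 9.22% of all genes. Shares of all genes after centring, or lower at a size of 1, were not computed, so the counts in those settings have no background.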

Other observations

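Genes whose own promoter holds the motifs searched above were described apart from the AP-1 subunits, as values without a test. Among 13367 genes with a value and a RefSeq promoter, 28.2% were higher and 21.7% were lower by size, with a median log2 fold change of -0.12. Among the 472 with the AP-1 site TGACTCA, 38.6% were higher and 17.8% were lower, with a median of 0.016. With the authors' FDR of at most 0.001 as well, these shares were 19.1% and 6.78%, beside 16.4% and 13.4% of all genes with a promoter. The corresponding shares were 20.7% and 11.3% for the full CRE, 19.4% and 12.7% for the core TGACG, and 15.5% and 10.8% for TGACATCA, so the share of higher genes with the FDR was not particular to the AP-1 site. Among the 381 genes with the full CRE TGACGTCA the shares by size were 31.2% and 15%, and the median was -0.072. Among the 251 genes with TGACATCA, the variant site of JUN, they were 33.9% and 27.5%, with a median of -0.0094. The 4187 genes with the core TGACG had 29.5% higher and 18% lower, with a median of -0.087. Base composition and expression level were not matched between these groups, and their part in the shares was not tested.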
